A study of Mus musculus with 17 samples.

Results

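Expression is described for 8 genes of the choroid plexus, Kl, Htr2c, Prlr, Lepr, Insr, Enpp2, Mc3r and Avpr1a. They encode klotho, 6 receptors for hormones or serotonin, and autotaxin. The genes were chosen by symbol, matched to 1 Ensembl gene identifier each, and are 8 of the 55487 genes in the deposited count table. RNA came from whole choroid plexus, taken from lateral ventricles of mice of the C57BL/6 strain. The controls were labelled CTRL (n = 5). T1 mice received dextran sodium sulfate (DSS), which damages the gut epithelium and serves as a model of colitis, for 1 day. T3 mice had it for 3 days, and T5 mice had it for 3 days and then water for 2 days (n = 4 each). No genetic alteration is named for any group, and neither the ages nor the sexes of the mice are given in the sources used here. Whether the samples within a group were separate animals is not labelled, so p-values measure the spread between these samples, which may be technical.

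The choroid plexus is a vascularised fold of tissue whose epithelium secretes cerebrospinal fluid and separates it from blood. That epithelium is a known site of klotho and of the serotonin receptor HTR2C, carries receptors for leptin, prolactin and insulin, and releases autotaxin into the fluid. Klotho is a membrane protein that serves as the co-receptor of the hormone FGF23 and is shed by proteases; autotaxin is a secreted enzyme that makes lysophosphatidic acid from lysophosphatidylcholine.

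The 16 epithelial markers checked were all above 0 in every library, with a summed level of 63264 to 164586 CPM. CPM here means counts per library size after TMM normalisation, which corrects for differences in RNA composition. Libraries held 8875921 to 26839417 counts. The sample titles carry running numbers, and the 4 libraries numbered 28 and above (3 T1 libraries, replicates 2, 3 and 4, and replicate 4 of T3) stood apart. Their summed epithelial markers were 63264 to 104674 CPM, against 100286 to 164586 CPM in the other 13 libraries. Ttr, the transthyretin gene, made up 84.7 to 90.8% of this sum, and the other 15 markers summed to 8818 to 12767 CPM in the 4 libraries and 9725 to 15874 CPM in the 13, which overlap. Their 14 endothelial markers summed to 352 to 585 CPM, against 127 to 283 CPM. Markers of neurons were present in every group, with summed levels (14 genes) of 22.2 to 142 CPM for CTRL, 126 to 488 CPM for T1, 33.9 to 534 CPM for T3 and 85.7 to 824 CPM for T5. Oligodendrocyte markers (10 genes) varied far more, summing to 96.5 to 7092 CPM for CTRL and 307 to 9211 CPM for T1. Their sums were 171 to 984 CPM for T3 and 445 to 16567 CPM for T5. The brain marker covariate used below averages the neuron, astrocyte and oligodendrocyte markers. Because whole tissue was sequenced, fewer cells of a type and less RNA per cell cannot be told apart.

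Compared per transcript length, the 8 genes spanned 4 orders of magnitude in the plot of length-scaled levels. Enpp2 averaged 21729 ± 3615 TPM (a share of transcripts scaled to gene length; mean ± SD over all 17 libraries). It was the most abundant gene of the table by CPM after Ttr, and its share of all counts was 3.97 to 6.11% per library. Kl followed at 749 ± 218 TPM, then Prlr at 173 ± 27.8 TPM, Htr2c at 74.1 ± 18.8 TPM and Lepr at 47.4 ± 10.4 TPM. The low end of the order was Mc3r at 9.84 ± 3.13 TPM, Insr at 6.55 ± 3.23 TPM and Avpr1a at 2.07 ± 1.95 TPM. Enpp2, Kl, Prlr and Htr2c kept this order in all 17 libraries, and the ranges of Enpp2, Kl and Prlr did not meet. Htr2c lay above Lepr in each of the 17 libraries, although their ranges overlapped (45.5 to 104 TPM for Htr2c, 32.2 to 74.2 TPM for Lepr). Mc3r lay above Insr in 15 of 17 libraries, and their ranges overlapped over most of their width (4.37 to 15.9 TPM for Mc3r, 4.12 to 14.7 TPM for Insr). TPM values rest on the summed exon length of each gene, since the transcript isoforms were not measured.

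**Figure D1:**
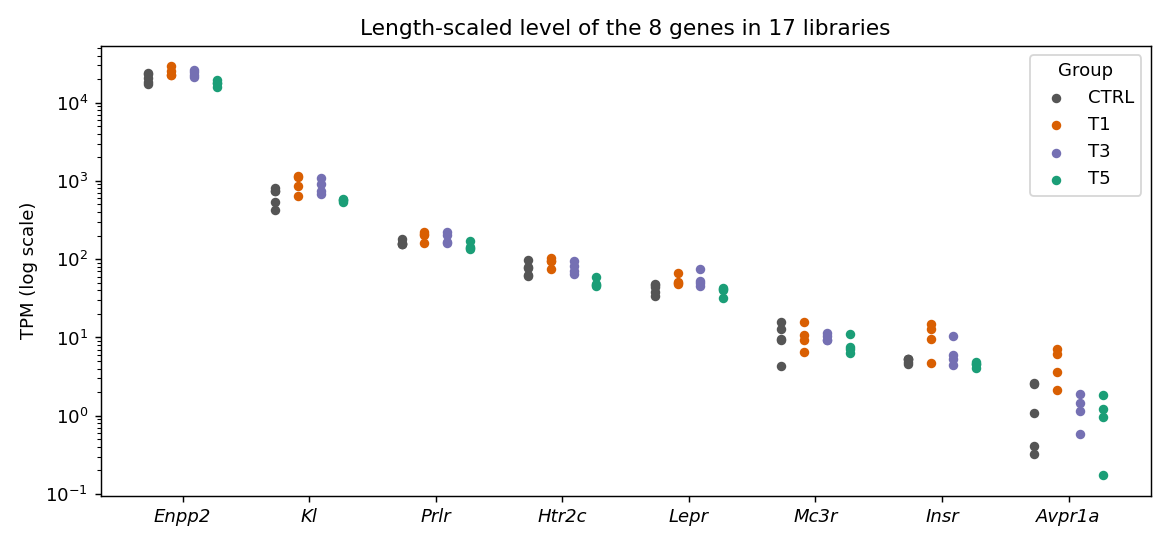
Length-scaled level (TPM, log axis) of the 8 genes, ordered by their mean, with 1 point per library coloured by group (CTRL, T1, T3, T5). Enpp2 stood between 15881 and 29056 TPM and Avpr1a between 0.17 and 7.13 TPM.

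The promoter windows of Kl, Htr2c and Prlr are shown because these are the most abundant members after Enpp2 with a RefSeq window; Insr and Enpp2 had none. Each is 250 bases before an annotated start, on the plus strand of GRCm38.p6 (sequences from RefSeq). The Kl and Htr2c windows end at the start of the gene in GENCODE; that of Prlr lies before a later annotated start and was chosen because it holds a motif match. RefSeq has 9 windows for 6 of the members, among them another 2 for Prlr, 1 of which is at the GENCODE start of the gene; these other windows hold no match to either motif. Capitals mark TTCNNNGAA, the palindromic motif bound by STAT proteins, which the prolactin receptor activates. It was searched on both strands and occurred in 7.02% of 32851 windows of the same length; TAATCC, the core bound by OTX factors, occurred in 6.25% and in none of the windows shown.
Kl, chr5:150952357-150952606: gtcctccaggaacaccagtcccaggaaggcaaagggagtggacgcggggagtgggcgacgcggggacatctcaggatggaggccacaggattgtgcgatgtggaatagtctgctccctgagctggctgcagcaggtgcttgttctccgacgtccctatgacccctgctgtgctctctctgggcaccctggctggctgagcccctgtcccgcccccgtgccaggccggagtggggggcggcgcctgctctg
Htr2c, chrX:146962263-146962512: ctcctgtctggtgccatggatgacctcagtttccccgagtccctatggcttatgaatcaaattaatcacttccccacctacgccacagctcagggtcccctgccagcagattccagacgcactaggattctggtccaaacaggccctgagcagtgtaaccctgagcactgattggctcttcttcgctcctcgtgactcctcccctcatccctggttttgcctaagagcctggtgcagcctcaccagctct
Prlr, chr15:10223656-10223905: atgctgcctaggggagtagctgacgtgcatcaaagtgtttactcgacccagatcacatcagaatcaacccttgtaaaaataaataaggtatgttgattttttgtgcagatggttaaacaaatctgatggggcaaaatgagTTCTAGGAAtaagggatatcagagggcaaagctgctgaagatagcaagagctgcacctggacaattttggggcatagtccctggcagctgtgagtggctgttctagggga
The match in the Prlr window begins 110 bases before the start. The GC content was 66.8% for Kl, 55.6% for Htr2c and 44.8% for Prlr. The data do not show which Prlr start the choroid plexus used.

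All 8 genes passed the filter on low counts and were tested in edgeR's quasi-likelihood fit with 16851 genes, in the 3 comparisons with CTRL and between successive times. None of the 8 had an adjusted p under 0.05 in any of the 5 comparisons, and neither had any of the 16851 genes (0% called in each comparison). At an unadjusted p under 0.05, 2 of the 8 genes passed in T1 against CTRL (Insr and Avpr1a), where 21.1% of all genes did. In T3 against CTRL it was 0 of 8 (4.97% of all genes), and in T5 against CTRL it was 1 of 8, Htr2c (7.83%). Between times, Insr and Avpr1a passed in T3 against T1 (8.2% of all genes) and Htr2c in T5 against T3 (10.5%). A test of any difference among the 4 groups called 0 of the 8, with an unadjusted p under 0.05 for Insr, Htr2c and Avpr1a and for 18% of all genes. In T1 against CTRL, DESeq2 called 1 of the 8 genes (Insr) and 2.82% of all genes. Limma-voom with quality weights called 2 of the 8 there (Insr and Avpr1a), and 24.2% of all genes. In T3 against T1, limma-voom called Insr and Avpr1a, beside 24.1% of all genes, and DESeq2 called no member and 0.0952% of all genes. Neither called a member in the other 3 comparisons, where limma-voom called 0% of all genes and DESeq2 called 0.0119% in T3 against CTRL, 0.0714% in T5 against CTRL and 0.476% in T5 against T3.

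**Figure D2:**
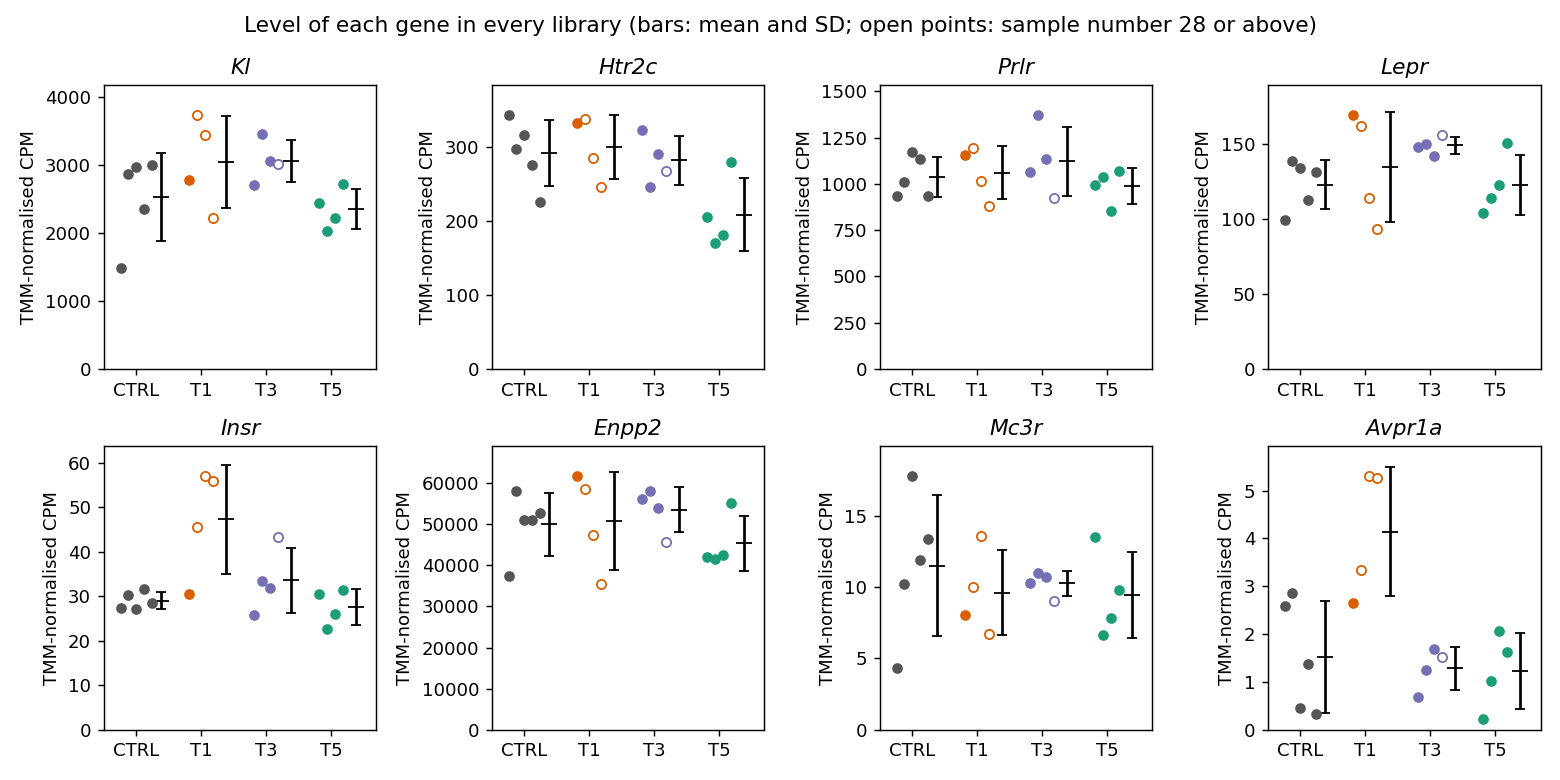
TMM-normalised CPM of each gene in every library (points), with the mean and SD of each group (bars); axes start at 0 and open points are the 4 libraries with sample numbers of 28 and above. Insr was high in those open points, Htr2c was low in 3 T5 libraries, and the Avpr1a ranges of T3 and T1 did not overlap.

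Kl, the klotho gene (chromosome 5, 150952607 to 150993817, GRCm38, ENSMUSG00000058488), was among the 15 most abundant genes by CPM. Its levels were 1478, 2866, 2976, 2353 and 2996 CPM in CTRL, 2788, 3732, 3436 and 2217 CPM in T1, 2707, 3460, 3065 and 3023 CPM in T3 and 2441, 2031, 2221 and 2718 CPM in T5. CTRL replicate 1 was the lowest of all 17 libraries, and every group overlapped every other. When scaled by library totals alone, T5 spanned 2070 to 2391 CPM, wholly below T3 at 2586 to 3471 CPM, as 6.17% of all genes did. The T1 mean was 3043 ± 677 CPM, against 2534 ± 645 CPM in CTRL, with a log2 fold change of 0.26 ± 0.20 (SE; edgeR adjusted p = 0.435). T3 stood at 3064 ± 309 CPM with a log2 fold change of 0.27 ± 0.20 (adjusted p = 0.911), and T5 at 2352 ± 296 CPM with -0.11 ± 0.20 (adjusted p = 0.934). T5 libraries all lay below the T3 mean, with a log2 fold change of -0.38 ± 0.21 in T5 against T3 (edgeR adjusted p = 0.512).

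Enpp2, which encodes autotaxin (chromosome 15, 54838901 to 54952892, ENSMUSG00000022425), had 37289, 58069, 51068, 50947 and 52713 CPM in CTRL, 61723, 58581, 47387 and 35567 CPM in T1, 56196, 58139, 53993 and 45686 CPM in T3 and 42108, 41496, 42492 and 55260 CPM in T5. T5 replicates 1, 2 and 3 lay close together, from 41496 to 42492 CPM, and T5 replicate 4 stood above them. All groups overlapped. By library totals alone T5 spanned 39696 to 48619 CPM, wholly below T3 at 50329 to 55949 CPM, as 6.17% of all genes did. Against CTRL, the log2 fold change was 0.02 ± 0.18 in T1, 0.10 ± 0.18 in T3 and -0.14 ± 0.18 in T5 (edgeR adjusted p = 0.949, 0.954 and 0.905). A gene on the opposite strand, Gm26684, shares 345 exon bases with Enpp2. Its total was 3020 counts over all libraries, against 15489123 for Enpp2, so few reads are involved.

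Htr2c, the Gq-coupled serotonin receptor (X chromosome, 146962513 to 147197277, ENSMUSG00000041380), had its lowest libraries in T5. Its levels were 342, 297, 316, 275 and 225 CPM in CTRL, 333, 338, 285 and 246 CPM in T1, 322, 246, 290 and 267 CPM in T3 and 205, 170, 180 and 279 CPM in T5. T5 replicates 1, 2 and 3 were below all other libraries, and T5 replicate 4 lay within the CTRL range. The T5 mean was 208 ± 49.2 CPM, against 291 ± 44.5 CPM in CTRL, and the log2 fold change was -0.48 ± 0.16 (edgeR adjusted p = 0.598; rank 195 of 16851 genes by p). Leaving out 1 library gave -0.65 to -0.40. The ends were the fits without T5 replicate 4 (edgeR adjusted p = 0.244) and without T5 replicate 2 (adjusted p = 0.987). T5 lay likewise below T3, at 282 ± 32.6 CPM, by a log2 fold change of -0.43 ± 0.17 (edgeR adjusted p = 0.411). In T1 and T3 against CTRL the log2 fold changes were 0.04 ± 0.16 and -0.05 ± 0.16 (edgeR adjusted p = 0.881 and 0.971). Summed macrophage markers were 338 to 621 CPM in T5 and 190 to 308 CPM in CTRL (12 genes, at most 1 of them at 0 in a library), and Htr2c correlated with their mean log2 level at r = -0.63 over the 17 libraries. For the 10 astrocyte markers the r was -0.64, and their sum was 307 to 1389 CPM in T5 and 189 to 786 CPM in CTRL. Such correlations were not particular to Htr2c. With macrophage and astrocyte markers, r was -0.66 and -0.73 for Prlr and -0.65 and -0.69 for Enpp2. Their log2 fold changes in T5 against CTRL were -0.07 and -0.14. Kl, Lepr and Mc3r were also negative with both lists, while Insr and Avpr1a were positive, at 0.13 to 0.15. With a covariate for brain markers, the log2 fold change of Htr2c was -0.37 in T5 against CTRL (edgeR adjusted p = 0.537) and -0.30 in T5 against T3 (adjusted p = 0.326), and the second no longer had an unadjusted p under 0.05. T5 against T3 also had an unadjusted edgeR p above 0.05 without T3 replicate 1, T5 replicate 2 or T5 replicate 3 (log2 fold change -0.36, -0.35 and -0.37). That p was under 0.05 in every other fit that left out 1 library. The part of brain tissue in the Htr2c difference was not tested. With scaling to the epithelial markers the log2 fold changes were -0.51 in T5 against CTRL and -0.41 in T5 against T3. Both had an unadjusted edgeR p under 0.05 (0.00863 and 0.0389), but neither had an adjusted p under 0.05. The points share libraries, library size and tissue composition, and the part of macrophages in the Htr2c values was not tested.

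Prlr, the prolactin receptor of the JAK-STAT pathway (chromosome 15, 10177238 to 10349180, ENSMUSG00000005268), varied least among the 8 genes, with a coefficient of variation of 12.6% over the 17 libraries. It had 935, 1012, 1171, 1134 and 937 CPM in CTRL, 1155, 1193, 1017 and 878 CPM in T1, 1065, 1371, 1133 and 922 CPM in T3 and 996, 1038, 854 and 1070 CPM in T5. All groups overlapped, and log2 fold changes against CTRL were 0.03 ± 0.14 in T1, 0.11 ± 0.14 in T3 and -0.07 ± 0.14 in T5 (edgeR adjusted p = 0.899, 0.922 and 0.941).

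Lepr, the leptin receptor, which shares the JAK-STAT route (chromosome 4, 101717404 to 101815352, ENSMUSG00000057722), had 99.2, 139, 134, 113 and 131 CPM in CTRL, 169, 162, 114 and 93.5 CPM in T1, 148, 150, 142 and 156 CPM in T3 and 104, 114, 123 and 151 CPM in T5. The T3 libraries were the least spread of any group and all lay above the CTRL libraries. Of all genes tested, 0.783% had T3 libraries wholly above CTRL. The T3 mean was 149 ± 5.80 CPM, against 123 ± 16.6 CPM in CTRL, and the log2 fold change was 0.28 ± 0.16 (edgeR adjusted p = 0.911). When CPM were scaled by library totals alone, T3 spanned 132.6 to 179 CPM and CTRL 103 to 133.1 CPM, and the ranges overlapped. In T1 and T5 the log2 fold changes were 0.13 ± 0.16 and 0.00 ± 0.16 (edgeR adjusted p = 0.643 and 0.998).

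Insr, the insulin receptor, a receptor tyrosine kinase (chromosome 8, 3122061 to 3279617, minus strand, ENSMUSG00000005534), gave the smallest p among the 8 genes. It had 27.4, 30.3, 27.1, 31.7 and 28.5 CPM in CTRL, 30.5, 45.6, 57.0 and 55.9 CPM in T1, 25.9, 33.4, 31.7 and 43.3 CPM in T3 and 30.5, 22.6, 25.9 and 31.4 CPM in T5. T1 averaged 47.2 ± 12.3 CPM, against a CTRL range of 27.1 to 31.7 CPM, and the log2 fold change was 0.71 ± 0.17 (edgeR adjusted p = 0.128; rank 85 of 16851 genes by p). It passed the threshold by DESeq2 (adjusted p = 0.0136) and by limma-voom (adjusted p = 0.00426). In edgeR it passed without T1 replicate 1 (adjusted p = 0.018) or without T3 replicate 4 (adjusted p = 0.0343). Those 2 fits called 2206 and 723 of the 16851 genes, and in the first every T1 library left has a number of 28 or above. Leaving out any other library gave an edgeR adjusted p of 0.131 to 0.401. T3 was at 33.6 ± 7.26 CPM with 0.21 ± 0.17 (edgeR adjusted p = 0.911), and T5 at 27.6 ± 4.10 CPM with -0.07 ± 0.17 (adjusted p = 0.957). T3 against T1 gave -0.49 ± 0.18 (edgeR adjusted p = 0.577).

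The high Insr values fell on the libraries with sample numbers of 28 and above, as the plot by sample number shows. Those 4 libraries spanned 43.3 to 57.0 CPM and the other 13 spanned 22.6 to 33.4 CPM. T1 replicate 1, the 1 T1 library with a lower number, had 30.5 CPM, within the CTRL range of 27.1 to 31.7 CPM. With a term for this split in the fit, the log2 fold change of T1 against CTRL was 0.18 (edgeR adjusted p = 0.999), and without the 4 libraries it was 0.057 (adjusted p = 0.981), resting on 1 T1 library. The split was singled out after the values were seen, and its groups were not chosen by the study. Every T1 library but replicate 1 carries these numbers, so the split and 1 day of DSS cannot be cleanly told apart. The share of all genes with the same split is not given here, so it cannot be called particular to Insr. The endothelial markers, at 352 to 585 CPM in those 4 libraries, moved with Insr (r = 0.75 over 17 libraries); all 14 were above 0 in every library. The 10 mural cell markers, which mark pericytes and smooth muscle, correlated with Insr at r = 0.66 and summed to 172 to 573 CPM in the 4 libraries and 54.3 to 331 CPM in the other 13. Malat1, a nuclear long noncoding RNA named after its values were seen, was 964 to 1413 CPM there and 238 to 644 CPM in the other 13. The part of these cells and of nuclear RNA in the Insr result was not tested. Igf1r, the receptor for insulin-like growth factor 1, had the same split, at 34.5 to 53.0 CPM in the 4 libraries and 19.9 to 31.1 CPM in the other 13. Igf1r had a log2 fold change of 0.70 ± 0.14 in T1 against CTRL (edgeR adjusted p = 0.128).

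**Figure D3:**
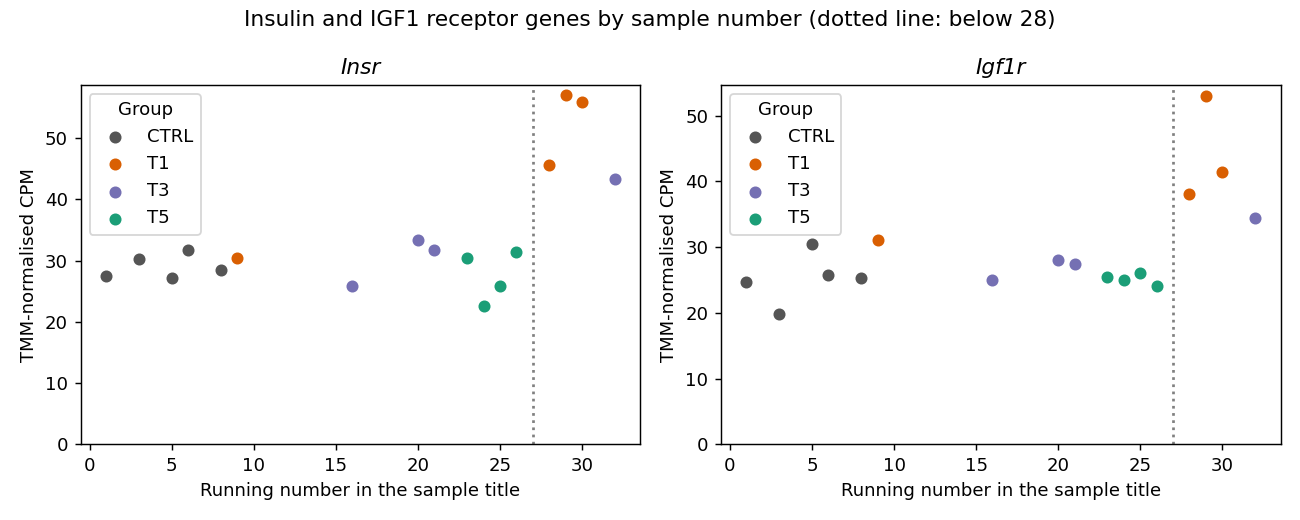
TMM-normalised CPM of Insr and Igf1r (vertical axes from 0) against the running number in the sample title, with 1 point per library coloured by group. The 4 libraries right of the dotted line hold the highest values of each gene, 43.3 to 57.0 CPM for Insr and 34.5 to 53.0 CPM for Igf1r.

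Mc3r, a Gs-coupled melanocortin receptor (chromosome 2, 172248492 to 172251114, ENSMUSG00000038537), had 4.29, 10.2, 17.8, 11.9 and 13.3 CPM in CTRL, 8.05, 9.97, 13.6 and 6.73 CPM in T1, 10.3, 11.0, 10.7 and 9.01 CPM in T3 and 13.5, 6.61, 7.79 and 9.76 CPM in T5. The CTRL libraries had both the lowest and the highest value, and every DSS library lay between them. Log2 fold changes against CTRL were -0.26 ± 0.31 in T1, -0.17 ± 0.31 in T3 and -0.29 ± 0.31 in T5 (edgeR adjusted p = 0.635, 0.954 and 0.883).

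Avpr1a, the V1a vasopressin receptor, also Gq-coupled (chromosome 10, 122448499 to 122453452, ENSMUSG00000020123), was at the limit of what these depths resolve, with 4 to 82 counts per library. It had 2.59, 2.86, 0.46, 1.38 and 0.34 CPM in CTRL, 2.65, 3.34, 5.30 and 5.27 CPM in T1, 0.67, 1.24, 1.69 and 1.52 CPM in T3 and 0.21, 1.02, 2.05 and 1.63 CPM in T5. The T1 libraries overlapped CTRL through T1 replicate 1 alone. T1 averaged 4.14 ± 1.36 CPM, against 1.53 ± 1.17 CPM in CTRL, and the log2 fold change was 1.43 ± 0.60 (edgeR adjusted p = 0.193). Leaving out 1 library gave 1.18 to 1.80. The unadjusted edgeR p was then above 0.05 without CTRL replicate 3, 4 or 5 or without T1 replicate 3 or 4. Limma-voom with quality weights gave 2.02 (adjusted p = 0.0119). With the term for sample numbers, the edgeR log2 fold change was 0.98 (adjusted p = 0.999). The T3 libraries, at 0.67 to 1.69 CPM, all lay below the T1 libraries, at 2.65 to 5.30 CPM, as 1.73% of all genes did. T3 against T1 gave -1.67 ± 0.65 (edgeR adjusted p = 0.577).

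**Figure D4:**
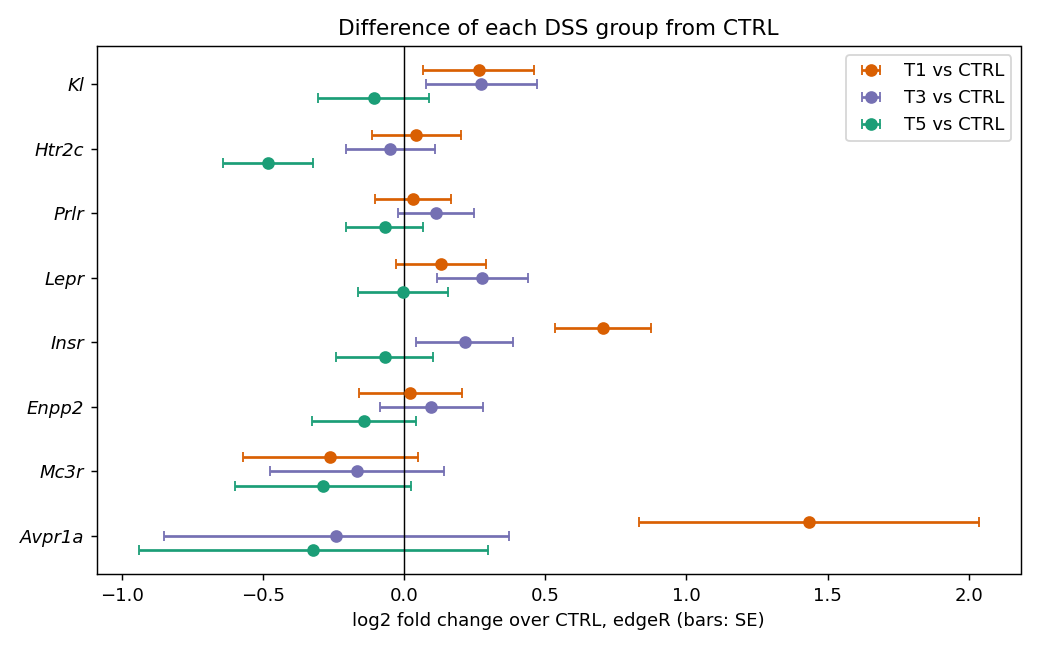
Log2 fold change of each gene in T1, T3 and T5 over CTRL (points, edgeR) with its SE (bars). Insr and Avpr1a in T1 lie farthest right, at 0.71 and 1.43, and Htr2c in T5 lies left of 0 at -0.48.

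All 8 genes had a negative log2 fold change in T5 against CTRL (median -0.12), though Kl, Prlr, Lepr and Enpp2 were positive with a covariate for brain markers and Lepr also with DESeq2 or with scaling to the epithelial markers. In T5 against T3 all 8 were negative too (median -0.26), except Mc3r with the brain marker covariate and Avpr1a with the term for sample numbers or without those 4 libraries. Of all genes tested, 54.5% were positive in T5 against CTRL and 50.9% in T5 against T3. Both comparisons share the T5 libraries, so the 2 counts are not separate observations. Several of the 8 genes also correlate with each other (Enpp2 and Lepr at r = 0.86), so they are not 8 separate observations either.

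The ligands of these receptors were near 0 in most libraries, with exceptions. Prl, which encodes prolactin, reached 269 CPM in the third T1 library, T1 replicate 3, while the other 16 libraries held 0 to 2.18 CPM. Pomc, the precursor of the melanocortins, was 83.0 CPM in that library and 0.38 to 2.62 CPM in the others. Gh and Cga, other pituitary hormone genes named after their values were seen, were 3737 and 22.96 CPM there. T1 replicate 4 held 24.6 CPM of Tph1, the enzyme that starts serotonin synthesis in peripheral tissues and the pineal gland, while the others held 0 to 0.64 CPM. Avp stayed at 0 to 0.97 CPM, Lep at 0 to 0.32 CPM, and Fgf23 had 1 count in all 17 libraries together. Ins2, an insulin gene, was present in every library at 10.6 to 40.6 CPM. These T1 libraries give the T1 means of Prl, Pomc and Tph1 most of their size, and without T1 replicate 3 the other 3 T1 libraries held 0.41 to 1.43 CPM of Pomc.

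**Figure D5:**
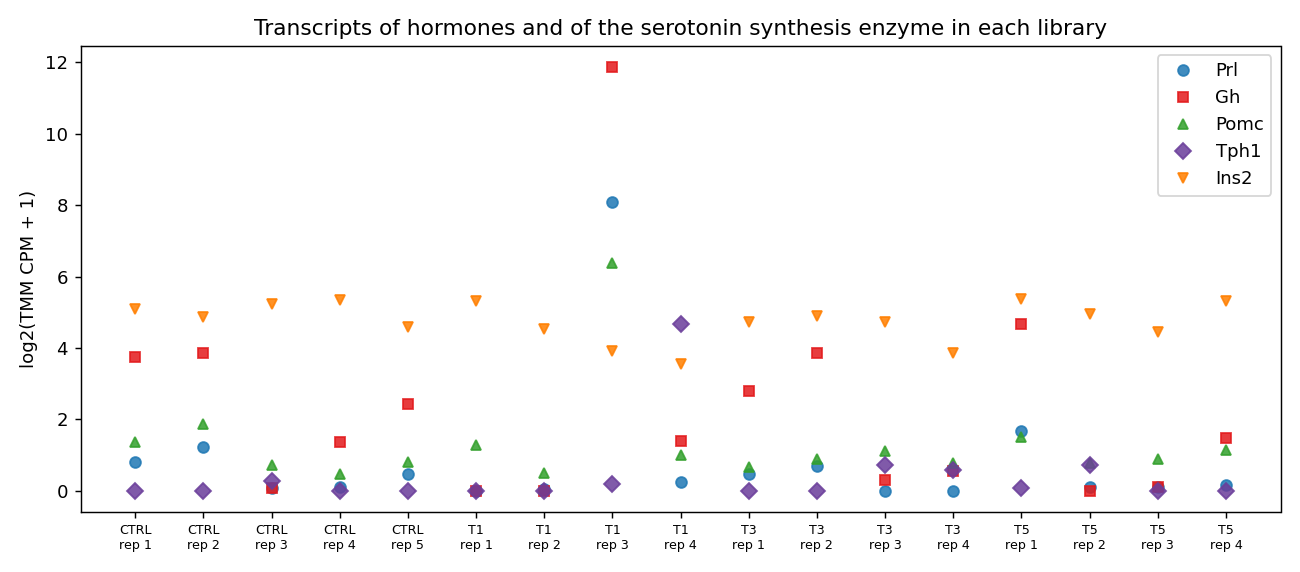
Log2(TMM CPM + 1) of Prl, Gh, Pomc, Tph1 and Ins2 in each of the 17 libraries, ordered by group. T1 replicate 3 holds the high Prl, Gh and Pomc values (269, 3737 and 83.0 CPM), and T1 replicate 4 the high Tph1 value.

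Close relatives of the receptors were mostly low. Klb, the other klotho family co-receptor in the list, was 0 to 0.34 CPM, and Avpr2 had no count in any library. Avpr1b reached 0.45 CPM, Mc4r 1.81 CPM, Oxtr 2.27 CPM, Htr2a 1.98 CPM and Htr2b 0.28 CPM at most. Insrr, the insulin receptor related receptor, reached 5.84 CPM in T3 replicate 4 and 0.39 CPM or less elsewhere. By contrast, Ghr, the growth hormone receptor, was 29.3 to 62.0 CPM and Leprot, the leptin receptor overlapping transcript, was 50.9 to 70.5 CPM.

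Of 155 other genes in 8 pathway lists tested in the same fit, edgeR called none in any of the 5 comparisons. In T1 against CTRL, DESeq2 called 6 of the 155, where it called 2.82% of all genes. Limma-voom called 43 of the 155, with 37 higher in T1, where it called 24.2% of all genes and 11.6% in the higher direction. In T3 against T1, DESeq2 called 1 and limma-voom 36 of the 155 (0.0952% and 24.1% of all genes). In T5 against T3, DESeq2 called 1 and limma-voom 0. In T1 against CTRL, 38 of the 155 genes had an unadjusted edgeR p under 0.05 (21.1% of all genes). With the term for sample numbers 7 did (3.84% of all genes), 4 of them in both fits. Every T1 library but replicate 1 has a number of 28 or above. The fit with the term therefore cannot cleanly separate the numbering from 1 day of DSS, and the fall is not read as an effect of either. In the klotho and FGF23 list, 9 of 20 genes passed the filter. In T1 against CTRL all 9 were positive (median log2 fold change 0.36, against 0.08 for all genes). The share of all genes positive there is not given here. Of the 9, 4 had an unadjusted p under 0.05, Adam17, Bace1, Adam10 and Slc20a1. With the term for sample numbers these 4 gave 0.29, 0.018, 0.22 and 0.19 (edgeR adjusted p = 0.999 for each). Adam10, a sheddase of klotho, gave 0.36 ± 0.14 in T3 against CTRL (edgeR adjusted p = 0.911). In the serotonin list 3 of 21 had an unadjusted p under 0.05 in T1, Itpr2 among them at 1.29 ± 0.49 (edgeR adjusted p = 0.165); Itpr2 encodes an inositol trisphosphate receptor. In the JAK-STAT list 5 of 21 genes did so in T1. Il6st, a shared signalling receptor of the interleukin 6 family, gave 0.80 ± 0.19 and Jak1, a kinase, gave 0.39 ± 0.11 in T1 against CTRL (edgeR adjusted p = 0.128 and 0.135). Il6st averaged 110 ± 22.4 CPM in T1, against 63.4 ± 4.95 CPM in CTRL. It spanned 101 to 140.1 CPM in the 4 libraries with sample numbers of 28 and above and 58.3 to 84.8 CPM in the other 13. T1 replicate 1, at 84.7 CPM, lay above the CTRL range of 58.3 to 69.4 CPM. With the term for sample numbers the log2 fold change of Il6st was 0.26 (edgeR adjusted p = 0.999).

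In the insulin list 9 of 27 genes had an unadjusted p under 0.05 in T1. Igf1r was 1 of them; Akt1, a kinase of the pathway, gave -0.45 ± 0.13 in T3 against CTRL (edgeR adjusted p = 0.911). Of the 20 lysophosphatidic acid genes tested, 2 did so in T1. Plpp3, a phosphatase that removes lysophosphatidic acid, gave 0.92 ± 0.32 and S1pr3, a lipid receptor, gave 0.69 ± 0.28 there (edgeR adjusted p = 0.155 and 0.188). Plpp3 averaged 169 ± 62.3 CPM in T1, against 89.5 ± 29.3 CPM in CTRL. T1 replicate 1, at 92.1 CPM, lay within the CTRL range of 60.6 to 136 CPM, and Plpp3 averaged 181 CPM in the 4 libraries of high number and 97.6 CPM in the other 13. With the term for sample numbers its log2 fold change was 0.16 (edgeR adjusted p = 0.999). In the melanocortin list 6 of 15 did so in T1, led by Adcy6, an adenylyl cyclase, at 0.81 ± 0.16 (edgeR adjusted p = 0.128). Adcy6 averaged 27.2 CPM in the 4 libraries of high number and 15.4 CPM in the other 13, and gave 0.55 with the term for sample numbers (edgeR adjusted p = 0.999). The vasopressin and oxytocin list had 2 of 9, Arrb1 and Lnpep, at 0.60 ± 0.23 and 0.57 ± 0.24 in T1 against CTRL (edgeR adjusted p = 0.17 and 0.189). Among 40 other hormone receptor genes tested, 8 did so in T1, and Ramp3, a receptor accessory protein, gave -0.97 ± 0.27 in T3 against CTRL (edgeR adjusted p = 0.911). The median log2 fold change of all genes was 0.08 in T1, and 21.1% of all genes had an unadjusted p under 0.05 there.

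Across the 17 libraries Enpp2 correlated with Lepr at r = 0.86, with Kl at 0.72 and with Prlr at 0.71, and the other pairs of Kl, Prlr and Lepr lay at 0.53 to 0.68. Htr2c correlated less with these 4 genes, at 0.24 to 0.45. Mc3r, a low gene, correlated with Kl at 0.71 and with Avpr1a at -0.48. Insr was near 0 with Prlr, Lepr and Enpp2 (-0.12 to -0.08). Enpp2 also tracked the mean level of the epithelial markers at r = 0.87, while Insr did not (-0.38). Insr and Avpr1a correlated at r = 0.61. These are Pearson correlations of log2 CPM over 17 libraries that share size factors and composition, and they are descriptions.

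Of 9015 named protein-coding genes averaging 10 CPM or more, those most like each member over the 17 libraries by Pearson r were as follows. For Kl they were Gpc4 (0.95), F5 (0.95) and Arsb (0.95), and for Htr2c Dnah7b (0.94), Lrriq1 (0.92) and Gmnc (0.89). For Prlr they were Ttc23 (0.83), Fam13a (0.83) and Rsph4a (0.82), and for Lepr Elovl4 (0.93), Slc4a10 (0.92) and Pdgfd (0.91). For Insr they were Lrp1 (0.93), Safb2 (0.93) and Ciz1 (0.92), and for Enpp2 Slc30a5 (0.94), Rnft1 (0.93) and Slco1c1 (0.93). For Mc3r they were Slc7a10 (0.92), Slc29a4 (0.91) and Kcnh2 (0.89), and for Avpr1a Gripap1 (0.83), Mylip (0.79) and Plagl1 (0.78). Likeness was lowest for Avpr1a and Prlr, where the leading r was 0.83.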

How the data were processed

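Libraries were prepared from choroid plexus total RNA by SMART-Seq v4, per the labels; that kit copies polyadenylated RNA and amplifies the cDNA by PCR. The authors deposited raw read counts per Ensembl gene in 1 table that holds the 17 libraries. Trimmomatic 0.39, STAR 2.6.1b and featureCounts 1.6.4 appear, with GRCm38, in the submitters' processing notes, which state no order. Strandedness and multi-mapping rules: not given in the sources used here. PCR copies were counted as reads.

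Symbols, coordinates (1-based) and exon lengths came from GENCODE release M21 on GRCm38; 55394 of 55487 identifiers were found there. The test was edgeR 4.0.16 under R 4.3.3 (TMM, filterByExpr by group, 1 mean per group over all 17 libraries, robust quasi-likelihood F tests, Benjamini-Hochberg adjustment over 16851 genes, threshold 0.05), a procedure tested on simulated data. SE is approximate, being the size of the log2 fold change over the root of its F value. DESeq2 1.42.0 and limma 3.58.1 were alternatives. Total counts per library ran from 8875921 to 26839417, and their number sets the precision of low genes.

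Groups came from the time point labels. The labels pair no samples across groups, and replicate numbers only name samples. The 8 genes and the gene lists were chosen with earlier results of these data known. All 8 genes are named. From each pathway list the 2 genes with the smallest p against CTRL and a mean of at least 1 CPM are named, beside ligands and close relatives; for each member, the 3 most similar named protein-coding genes; Bace1, Slc20a1, Gh, Cga and Malat1 were named after their values were seen.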

Additional observations from a re-analysis of the deposited data

Results flagged for a closer look

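Enpp2 in T5 replicate 4 was 55260 CPM, while the other 3 T5 libraries had 41496 to 42492 CPM. It was flagged because its gap to the nearest library of its group, relative to the whole range of the group, exceeded Dixon's critical value for 4 samples. The 8 genes in 4 groups gave 32 groups to test, and chance flags about 1 in 20 groups. In the same library Htr2c, at 279 CPM, was also the highest of the T5 group (170 to 205 CPM in the others), and so was Lepr, at 151 CPM (104 to 123 CPM). In all, 6 of the 8 genes were highest in it among T5 libraries. It had the lowest TMM factor of all libraries, 0.88, which raises its CPM. By library totals Prlr was highest in T5 replicate 2 (1058 against 941 CPM) and Insr in T5 replicate 1 (28.8 against 27.6 CPM). The share of all genes highest in T5 replicate 4 is not given here. With CPM scaled by library totals alone, Enpp2 was 48619 CPM there and 39696 to 42293 CPM in the others. The gap was then 0.709 of the range, below the critical value. The summed epithelial markers were 163600 CPM there and 100448 to 132626 CPM in the other 3 T5 libraries; without Ttr these sums were 15547 CPM and 11130 to 13084 CPM. Their part in the Enpp2 value was not tested.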

How the results depend on the processing

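Each result was recomputed under 26 alternatives, 17 of which leave out 1 library each. Of the member fold changes recomputed, 964 kept direction and call, 69 changed sign and 7 passed the threshold; the 7 are Insr and Avpr1a, as given with those genes. No gene was called by edgeR in any comparison, while DESeq2 called 474 genes in T1 against CTRL, 2 in T3 against CTRL, 12 in T5 against CTRL, 16 in T3 against T1 and 80 in T5 against T3. Limma-voom with quality weights called 4084 genes in T1 against CTRL and 4065 in T3 against T1. For any difference among the 4 groups it was 944 genes with DESeq2, 3829 with limma-voom and 10 with no filter on low counts. Among the 8 genes this gave 1 with DESeq2 and 2 with limma-voom in T1 against CTRL, 2 with limma-voom in T3 against T1, and 1 and 3 for any difference. Leaving out 1 library gave 0 to 2206 genes in T1 against CTRL (2206 without T1 replicate 1, 723 without T3 replicate 4), 0 to 3 in T3 against T1, 0 to 1 in T5 against T3 and 0 to 1264 for any difference, with 0 to 1 of the 8 genes in T1 against CTRL and for any difference. The cause was not tested.

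Fold changes that turned sign were small in most cases. With limma-voom the log2 fold changes against CTRL were -0.012 for Prlr, -0.00022 for Lepr and -0.076 for Enpp2 in T1 and 0.020 for Htr2c and 0.22 for Avpr1a in T3, and in T3 against T1 -0.056 for Kl and -0.0064 for Mc3r. With no filter Enpp2 in T1 was -0.0042, and with DESeq2 Lepr in T5 was 0.0041. With a brain marker covariate T5 against CTRL gave 0.0048 for Kl, 0.050 for Prlr, 0.10 for Lepr and 0.0024 for Enpp2. It gave -0.11 for Kl, -0.060 for Prlr, -0.086 for Enpp2 and -0.15 for Mc3r in T3 against T1, and 0.094 for Mc3r in T5 against T3. With scaling to the epithelial markers Lepr in T5 was 0.022, and T3 against T1 gave -0.12 for Kl, -0.066 for Prlr, -0.041 for Enpp2 and -0.060 for Mc3r. Library totals alone gave -0.088, -0.023, -0.013 and -0.019 for these 4 genes, in this order, in T3 against T1. The term for sample numbers gave -0.059 for Prlr and -0.092 for Enpp2 in T3 against T1 and 0.061 for Avpr1a in T5 against T3. Without the 4 libraries of high number, T3 against T1 gave -0.19 for Lepr, 0.011 for Insr and -0.12 for Enpp2, and T5 against T3 gave 0.010 for Avpr1a.

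Leaving out 1 library gave ranges that cross 0 for these log2 fold changes. In T1 against CTRL these were Htr2c -0.028 to 0.13, Prlr -0.021 to 0.12 and Enpp2 -0.084 to 0.16. In T3 against CTRL they were Htr2c -0.14 to 0.012, Mc3r -0.38 to 0.046 and Avpr1a -0.51 to 0.12, and in T5 against CTRL Lepr -0.12 to 0.069, Insr -0.14 to 0.015 and Avpr1a -0.68 to 0.043. In T3 against T1 they were Kl -0.13 to 0.11, Prlr -0.029 to 0.15, Lepr -0.0060 to 0.27, Enpp2 -0.076 to 0.18 and Mc3r -0.054 to 0.29, and in T5 against T3 Mc3r -0.35 to 0.016 and Avpr1a -0.44 to 0.28. The median of all genes in T1 against CTRL was 0.21 with library totals and 0.20 with epithelial scaling, against 0.08 with TMM. Depth limits Avpr1a, which had 4 to 82 counts per library. No paired analysis was possible because the replicate numbers only name samples.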
